A study of Mus musculus with 58 samples.

Results

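Chromatin-associated RNA was sequenced (ChrRNA-seq, which reads nascent and chromatin-bound transcripts) from female mouse embryonic stem cells (ES) lacking PCGF3 and PCGF5 as they were taken toward neural precursor cells (NPC). The libraries described are those titled NPC day 6 with dTAG-13 (2 replicates), set against ES day 0 with dTAG-13 (2 replicates), which is 4 of the 58 libraries of the series. All 22556 counted genes were read for differentiation, and the 246 X-linked genes with a deposited allelic ratio were read for X silencing.

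The cells are hybrids of the 129S strain (Dom) and Cast/EiJ (Cast), so RNA of the 2 X chromosomes can be told apart. In all 16 libraries of the line the Dom X carried Xist under a TetOn promoter that doxycycline (1 ug/mL) switches on, and both Pcgf3 and Pcgf5 were fused to FKBP12 F36V, a degron that dTAG-13 sends to the proteasome. In treated cultures dTAG-13 (100 uM) went in 12 hours before doxycycline and was kept on. ES cells were maintained on feeders in serum and LIF, and the methods describe pre-plating to remove feeders both before ES cells were moved to feeder-free dishes for harvest and, in 4 rounds, before neural differentiation. ES day 0 cells had no doxycycline. Day 6 cells had 6 days of doxycycline and neural medium, so the effects of medium, of induced Xist and of longer dTAG-13 exposure cannot be told apart in this comparison. The same days without dTAG-13 (2 and 2 libraries) gave the untreated comparison. The line is 1 clone and the labels number the replicates without saying what separates them, so the p-values measure the spread between these libraries, which may be technical.

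PCGF3 and PCGF5 are alternative core subunits of variant Polycomb repressive complex 1 (PRC1), an enzyme that ubiquitinates histone H2A at lysine 119. During X inactivation the Xist RNA brings this complex to the chromosome it coats, PRC2 then adds H3K27 methylation, and transcription from that chromosome falls gene by gene. Cells leaving the naive state switch off factors such as Nanog and Zfp42, pass through a formative state marked by Fgf5 and Pou3f1, and in neural medium go on to Sox1 and Pax6.

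The 4 libraries held 12.4 M to 22.2 M fragments, of which 45.9% to 48.5% carried allele information. The Dom share over all autosomes together lay between 50.7% and 51.9%, but single chromosomes departed from it. In all 4 libraries it was 35.2% to 35.5% on chromosome 8, 68.9% to 69.1% on chromosome 11 and 33.6% to 33.9% on chromosome 12. On chromosome 16 it went from 51.9% and 52.2% on ES day 0 to 42.6% and 34.9% on NPC day 6. The cause was not tested. One limit of the day 0 baseline concerns replicate 1, where Xist fragments came from both alleles (522 Dom and 314 Cast), while replicate 2 held 922 Dom and 2 Cast. The day 6 libraries held 39962 Dom with 35 Cast and 51016 Dom with 24 Cast. Collagen Col3a1, a fibroblast gene, was at 14.2 CPM (counts scaled to equal library size) in ES replicate 1 and 1.62 in replicate 2, and at 2.65 and 1.21 on day 6. The part of these Xist and Col3a1 differences in the results was not tested beyond the values without that library given below.

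The degron acts on protein, so the RNA of its targets does not check it. Pcgf3 was at 87.5 and 82.7 CPM on ES day 0 and at 78.7 and 81.3 on NPC day 6 (log2 fold change -0.06, SE 0.11). Pcgf5 was at 40.6 and 52 CPM on day 0 and at 52.5 and 94.3 on day 6 (0.70, SE 0.34, adjusted p = 0.17, edgeR's quasi-likelihood test with Benjamini-Hochberg adjustment, as for all adjusted p-values here). Neither change passed the threshold of 0.05.

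Xist was induced without PCGF3/5 and X-linked genes lost Dom RNA in both day 6 libraries. Xist rose from 135 and 107 CPM on ES day 0 to 8032 and 11367 on NPC day 6, and both day 6 libraries stood far above both day 0 libraries. The log2 fold change was 6.37 (SE 0.35, adjusted p = 3.1e-06). Tsix, the antisense transcript of Xist, fell from 435 and 568 CPM to 183 and 143 (log2 fold change -1.60, SE 0.22, adjusted p = 0.00063). The untreated libraries moved from 75.8 and 47.3 CPM of Xist to 10925 and 13369.5 (log2 fold change 7.68).

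The allelic ratio is the share of Dom fragments among fragments assigned to an allele. Its median over the 246 genes was 0.512 in both ES day 0 libraries, 0.417 and 0.399 on ES day 1, 0.307 and 0.333 on NPC day 3, and 0.225 and 0.228 on NPC day 6. Replicates of a day lay closer together than neighbouring days did. The cells without PCGF3/5 thus held 79.7%, 62.5% and 44.3% of the day 0 median on days 1, 3 and 6. Untreated cells held 65.4%, 36.7% and 14.5% on the same days, with day 6 medians of 0.0649 and 0.0833. Day 1 carries a limit, as dTAG-13 replicate 1 held 15142 Dom and 3925 Cast Xist fragments. The untreated day 1 libraries held 24 and 9 Cast Xist fragments, and the part of this in the day 1 ratios was not tested. From day 0 to day 6 with dTAG-13 the median fell by 0.285 (SD 0.00217), far more than the spread between replicates, although 2 libraries against 2 cannot give an exact two-sided permutation p below 0.333.

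**Figure D1:**
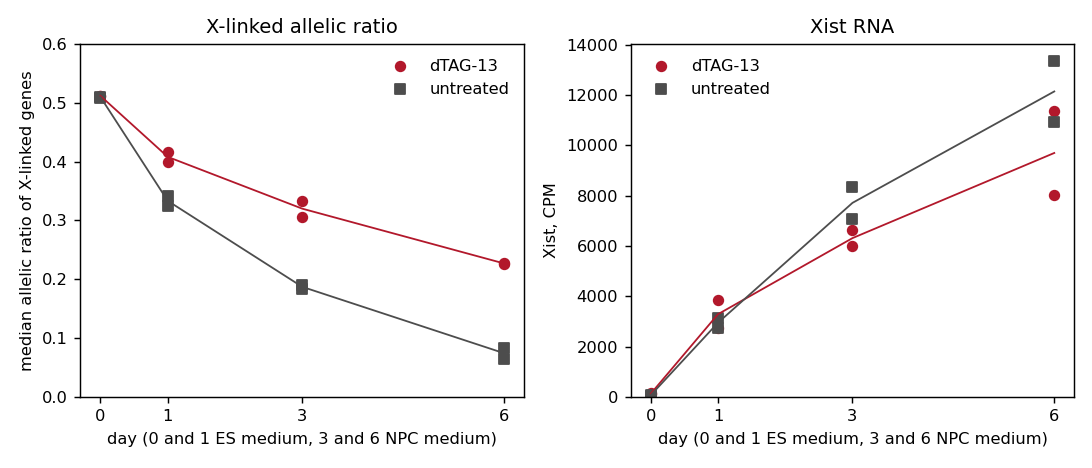
Median allelic ratio of the 246 X-linked genes (left) and Xist in CPM (right) against day of culture, with 1 point per library, lines through the group means, dTAG-13 in red and untreated in grey. With dTAG-13 the ratio falls from 0.512 to 0.225 and 0.228 on day 6, above both untreated libraries on days 1, 3 and 6, while Xist reaches 8032 and 11367 CPM.

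By gene, 236 of the 246 ratios were lower in both NPC day 6 libraries than in both ES day 0 libraries, 10 overlapped and none was higher in both. Among 11563 autosomal genes the Dom share was lower in both day 6 libraries for 22.6%. A quasi-likelihood test of the allele counts called 203 of the 246 genes lower and 0 higher, with a median log2 odds change of -1.79. Over all 13260 genes in that fit, 3.57% were called lower and 1.6% higher, and over the autosomal genes 2.01% and 1.65%. Of the 43 ratio genes not called, 38 had fewer than 100 allelic fragments in at least 1 of the 4 libraries. In untreated cells 235 were called lower, with a median log2 odds change of -3.68 and 4.61% of all genes called lower.

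The loss was carried by the Dom allele. Summed over the 246 genes, Dom fragments went from 5359 and 5791 CPM to 1693 and 1631, while Cast fragments were at 5141 and 5535 before and 5321 and 4918 after. Per gene the median log2 change was -1.76 for Dom, lower in 244 genes, and -0.05 for Cast, lower in 132 and higher in 114. Total RNA of these genes followed in part: 109 were called lower and 5 higher (median log2 fold change -0.53), against 164 and 9 in untreated cells (-0.84), and 44.3% were lower against 8.65% of autosomal genes.

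Genes differed widely in how far they were silenced. The median gene kept 45.9% of its day 0 ratio, with quartiles at 31.0% and 59.3%, and the untreated median was 14.7%. In both day 6 libraries 22 genes were below 0.1 and 11 above 0.4, against 123 and 1 in untreated cells. Precision on day 6 was limited by depth: the median 95% Wilson interval of a gene's ratio was 0.135 and 0.149 wide, or 0.0784 and 0.0863 for the 131 genes with at least 100 allelic fragments in each library, and intervals cover counting error only. The replicates of day 6 differed by a median of 0.0374, with a Spearman rank correlation of 0.83 between them across genes, which are not independent replicates.

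Genes with the lowest day 6 ratios among those 131 were close to silenced. Tex11, a meiosis gene at chrX:100838647-101059639 (mm10, minus strand), had ratios of 0.462 and 0.483 on day 0 and 0.0129 and 0.0408 on day 6. Its ratio was already 0.0796 and 0.0841 on day 3. The log2 odds change was -5.01 (SE 0.33, adjusted p = 2.1e-13), and all day 6 values lay below all day 0 values.

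Nhsl2 (chrX:101849384-102092055) went from 0.481 and 0.501 to 0.0467 and 0.0296. Pcyt1b, which makes CDP-choline for phospholipid synthesis, went from 0.539 and 0.534 to 0.0609 and 0.0529. Pls3, an actin-bundling protein gene, went from 0.447 and 0.441 to 0.0787 and 0.0518. All of these fell without overlap, to 7.78%, 10.6% and 14.7% of their starting ratio. The lack of overlap adds little, as the genes were chosen by their low day 6 ratios. Mtap7d3 (0.358 and 0.307 to 0.0475 and 0.0281) and Stard8, a GTPase-activating protein gene (0.306 and 0.301 to 0.0339 and 0.0584), started low and completed the 6.

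The largest falls in absolute ratio were those of Dlg3, a synaptic scaffold gene, from 0.592 and 0.601 to 0.107 and 0.0844, and of Cd99l2, a cell-surface protein gene, from 0.607 and 0.599 to 0.134 and 0.107. Zc3h12b fell from 0.604 and 0.61 to 0.089 and 0.172, and Fhl1, a LIM domain protein gene, from 0.591 and 0.56 to 0.15 and 0.0946. Pcyt1b and Nhsl2, described above, completed these 6. All 6 had day 6 libraries below both day 0 libraries, which adds little, as the genes were chosen by their large falls.

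At the other end were the genes with the highest day 6 ratios or the smallest falls. Kdm6a, a histone H3K27 demethylase known to escape X inactivation, was at 0.559 in both day 0 libraries and at 0.485 and 0.498 on day 6, a small fall that passed the test (log2 odds change -0.39, SE 0.07, adjusted p = 0.00048) on at least 3213 allelic fragments per library. In untreated cells it reached 0.333 and 0.384. Rbm3, a cold-inducible RNA-binding protein gene, fell from 0.529 and 0.535 to 0.418 and 0.462 (log2 odds change -0.53, SE 0.09, adjusted p = 0.000144), against 0.161 and 0.205 in untreated cells.

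Utp14a, needed for ribosomal RNA processing, went from 0.648 and 0.63 to 0.477 and 0.475, and Rpl10, a ribosomal protein gene, from 0.592 and 0.658 to 0.479 and 0.487, both past the threshold. Nkap (0.516 and 0.511 to 0.438 and 0.453) and Dkc1, which encodes the pseudouridine synthase dyskerin (0.363 and 0.373 to 0.286 and 0.326), did not pass it. For Dkc1 the adjusted p was 0.0656 (log2 odds change -0.40, SE 0.13), whereas the untreated libraries reached 0.115 and 0.0988.

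Like Nkap, Dynlt3 and Slc25a5 were among the 6 highest day 6 ratios without a called fall. Dynlt3, a dynein light chain gene, was biased to Dom from the start, at 0.885 and 0.862 on day 0 and 0.845 and 0.738 on day 6, and the untreated day 6 values were 0.802 and 0.742. Slc25a5, an ADP/ATP carrier gene, was at 0.395 and 0.282 on day 0 and 0.388 and 0.504 on day 6, with overlapping groups and an adjusted p of 0.25. It was the 1 ratio gene of the 246 whose log2 odds change was positive.

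**Figure D2:**
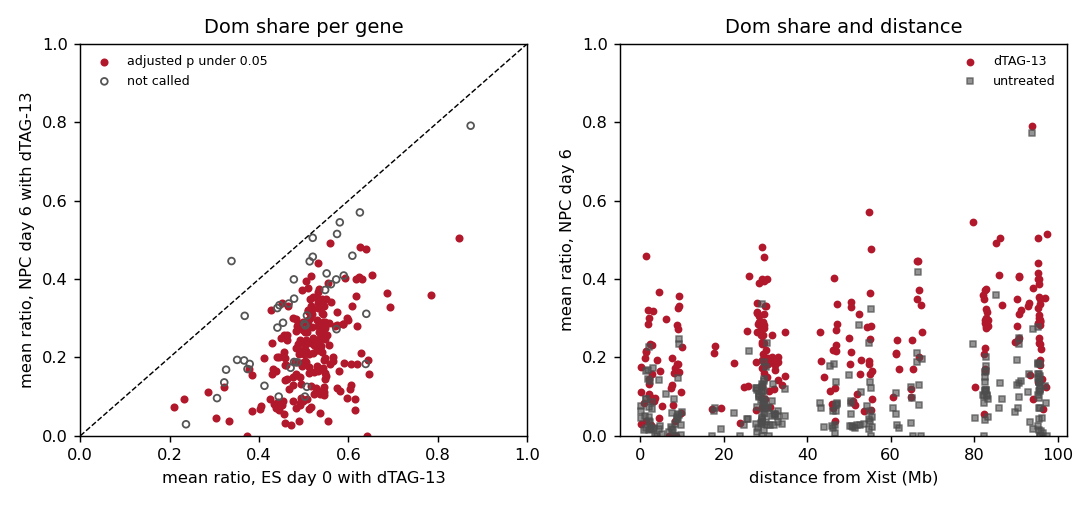
Left, mean allelic ratio of each of the 246 X-linked genes on NPC day 6 against ES day 0 with dTAG-13, filled where the adjusted p is under 0.05, with the dashed line marking no change. Right, mean day 6 ratio against distance from Xist in Mb for dTAG-13 (red) and untreated cells (grey). Points lie below the line for all but 1 gene, Slc25a5, and the dTAG-13 ratios lie mostly above the untreated ones at all distances.

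All 246 genes lie on the centromeric side of Xist, between 6047506 and 103396118 on the X. In windows from the chromosome start, the median day 6 ratio was 0.311 for the 49 genes in the first 20 Mb, 0.287 for the 32 from 20 to 40 Mb, 0.194 for the 43 from 40 to 60 Mb, 0.218 for the 65 from 60 to 80 Mb and 0.164 for the 57 nearest Xist. The same windows held 60.6%, 52.4%, 39.5%, 45.1% and 31.6% of the day 0 ratio. Genes nearest Xist thus had the lowest median and those farthest away the highest, with 18 of the 57 nearest and 2 of the 49 farthest below 0.1. The gradient was also present in untreated cells, with day 6 medians of 0.12, 0.115, 0.0564, 0.071 and 0.0482 in these windows. Their Spearman rank correlation with distance from Xist was 0.26. Across the 246 genes of these libraries, the Spearman rank correlation with distance from Xist was 0.37 (Pearson's r 0.39), and with the untreated day 6 ratio it was 0.75, as descriptions over genes that share libraries.

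Against untreated cells, 222 of the 246 genes had a higher ratio in both dTAG-13 libraries than in both untreated libraries on day 6 and 1 was lower in both, where 18.6% of autosomal genes were higher in both. The test of the difference between the changes called 110 genes higher and 0 lower, with a median of 1.83 in log2 odds and 238 positive. Over all genes 0.882% were called higher and 0.0754% lower. Leaving out untreated NPC day 6 replicate 1 lowered the 110 to 63, and Pcyt1b, Fhl1, Zc3h12b, Nkap and Rpl10 were among those then no longer called.

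Among the largest of these differences were those of genes that untreated cells had all but silenced. Log2 odds grow without limit as a ratio nears 0, so ranking by them favours such genes. F8, the coagulation factor VIII gene, was at 0.263 and 0.308 on day 6 with dTAG-13 and at 0 and 0.0377 untreated. The difference was 4.49 in log2 odds (SE 0.69, adjusted p = 7.79e-05).

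Zfp280c, a zinc finger gene, was at 0.138 and 0.228 against 0.0137 and 0.0233 (difference 3.78, SE 0.37). Prkx, a protein kinase gene, was at 0.31 and 0.222 against 0.0515 and 0.0328 (3.27, SE 0.56). Pcyt1b, which was also among the lowest day 6 ratios with dTAG-13 above, was at 0.00426 and 0 untreated (4.09, SE 0.84). None of these genes overlapped between treatments on day 6. That separation adds little, as the genes were chosen by their large called differences, which rest on the same libraries.

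Over all genes, 3037 of 15654 tested changed between ES day 0 and NPC day 6 without PCGF3/5: 1479 rose (9.45%) and 1558 fell (9.95%), and 1699 changed at least 2-fold. Of the 3037 called, 3034 had groups that did not overlap, so a lack of overlap adds little to a call. The median log2 fold change over all genes tested was 0.01. In untreated cells 19.5% rose and 18% fell (median 0.02). The counts rested on few libraries: without NPC day 6 replicate 1 the total was 1542, and without replicate 2 it was 1220. In bulk RNA such as this, fewer cells of a type and less RNA per cell cannot be told apart.

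**Figure D3:**
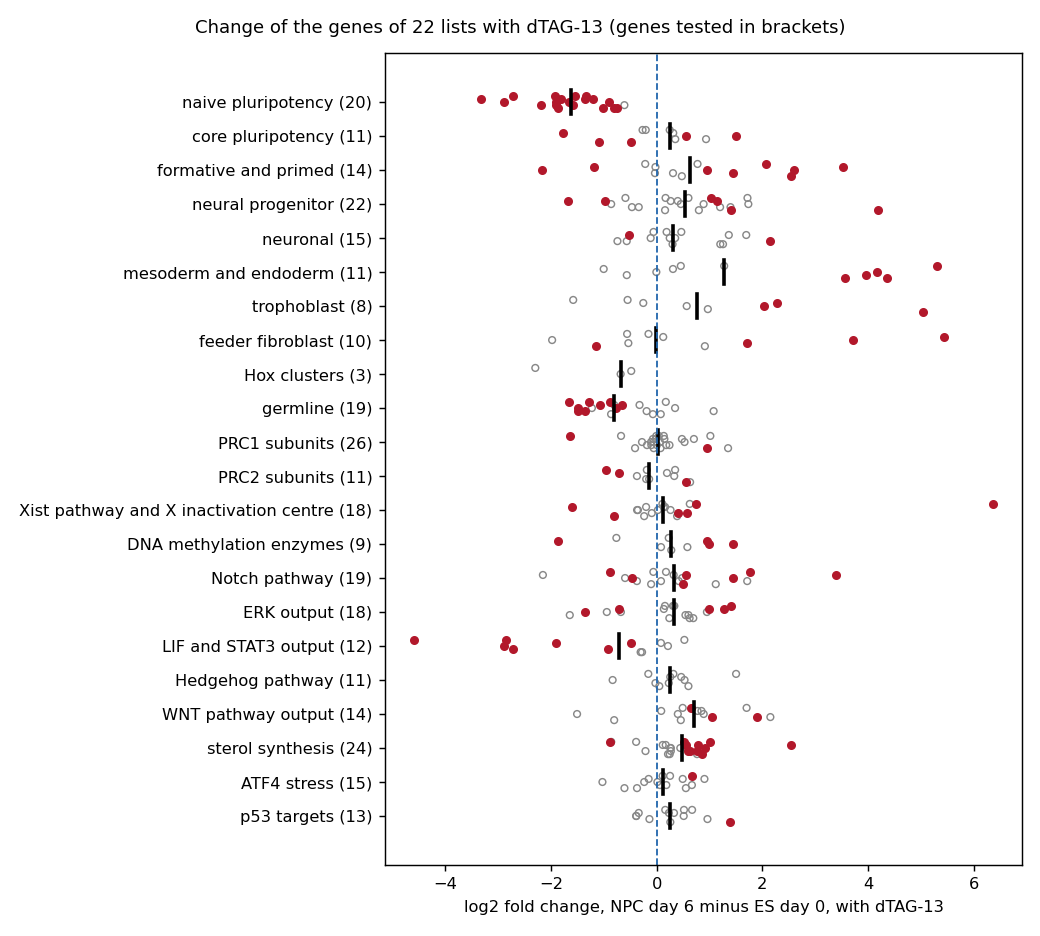
Log2 fold change from ES day 0 to NPC day 6 with dTAG-13 for the tested genes of each of 22 lists, filled where the adjusted p is under 0.05 and open where not, with a black bar at the list median and a dashed line at the median of all genes tested (0.01). Naive pluripotency, LIF and germline genes lie mostly below the line and mesoderm and endoderm genes mostly above it.

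Naive pluripotency genes were called lower with 1 exception. Of 20 tested, 19 were lower and 0 higher, with a median log2 fold change of -1.62, against 20 lower and a median of -2.38 in untreated cells. Without NPC day 6 replicate 2 the count was 10. Zfp42 (Rex1), the standard marker of the naive state, was at 1146 and 885 CPM on day 0, 263 and 281 on day 3 and 119 and 80.7 on day 6 (log2 fold change -3.32, SE 0.31, adjusted p = 7.9e-05). The day 3 and day 6 libraries lay below every ES library.

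Tfcp2l1, a transcription factor of the naive network, went from 305 and 214 CPM to 79.7 and 54.9 (log2 fold change -1.92). Nanog went from 65.9 and 50.7 to 23 and 16.2 (-1.54, SE 0.20). Tbx3, a LIF-responsive factor, went from 95.3 and 36.4 to 8.47 and 8.77 (-2.89), and Nr0b1 (Dax1) from 34.4 and 14.9 to 7.64 and 5.95 (-1.82). None of these overlapped between days.

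Residual naive expression was visible in several members. Esrrb, an orphan nuclear receptor of the naive network, was still at 335 and 244 CPM on day 6 from 497 and 534 (log2 fold change -0.81, SE 0.16), and Nr5a2 at 181 and 135 from 284 and 209 (-0.61, SE 0.27, adjusted p = 0.13), the 1 member not called. The untreated day 6 libraries held 195 and 170.1 CPM of Esrrb and 99 and 85.3 of Nr5a2. For 19 of the 20 genes the change was less negative with dTAG-13 than without, by a median of 0.72 in log2, beside -0.01 over all genes.

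Among targets of LIF signalling, a cytokine of the ES medium, 7 of 12 tested fell, 0 rose and 5 did not pass (median log2 fold change -0.71), and without NPC day 6 replicate 2 the count was 3. Bcl3, an NF-kappaB cofactor induced by STAT3, dropped from 12.4 and 9.19 CPM to 0.454 and 0.402 (log2 fold change -4.59, SE 0.30, adjusted p = 9.6e-06). Socs3, the feedback inhibitor of the receptor, dropped from 29 and 19.8 to 3.25 and 3.38 (-2.84, SE 0.34). Klf4, Tbx3 and Gbx2, which the naive list also holds, were 3 of the 7.

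General pluripotency genes moved in both directions. Of 11 tested, 2 rose and 3 fell (median log2 fold change 0.25). Pou5f1 (Oct4), which both naive and primed cells express, was at 70 and 41.4 CPM on day 0 and 69.2 and 59.7 on day 6 with overlapping groups (0.25, SE 0.21). Lin28a, an RNA-binding protein that blocks let-7, rose from 26.4 and 28.2 to 76.6 and 73.9 (1.49, SE 0.21). Tdgf1, a Nodal co-receptor, fell from 215 and 228 to 70 and 56.5 (-1.78, SE 0.33).

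Formative genes were called higher more often than lower. Of 14 tested, 6 rose, 2 fell and 6 did not pass (median log2 fold change 0.62, and 0.89 untreated). Pou3f1 (Oct6) went from 1.18 and 1.13 CPM to 5.45 and 7.72 (log2 fold change 2.54, SE 0.33, adjusted p = 0.00048). Sall2, a zinc finger factor, went from 2.53 and 3.87 to 17.9 and 20.4 (2.60, SE 0.29), beside 19.7 and 21.3 on untreated day 6.

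Fgf5, a growth factor of the primed epiblast, went from 3.26 and 8.87 CPM to 19.5 and 30.6 (log2 fold change 2.06, SE 0.55), and its call was lost without NPC day 6 replicate 2 (adjusted p = 0.141). The de novo DNA methyltransferase Dnmt3b went from 176 and 299 to 501 and 754 (1.44, SE 0.29) and Dnmt3a from 70.3 and 77.9 to 135 and 147 (0.96, SE 0.15). The Nodal antagonist Lefty2 was 1 of the 2 that fell, from 91.9 and 35.3 to 16.6 and 10.8 (-2.17, SE 0.40). Among 9 DNA methylation enzymes, 3 rose, Dnmt3a, Dnmt3b and Tet3, and Tet2 fell from 285 and 309.8 to 84.1 and 75.7 (-1.87, SE 0.28). Otx2 was at 59.8 and 64 on day 0 and 55.4 and 63.7 on day 6, with no separation.

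**Figure D4:**
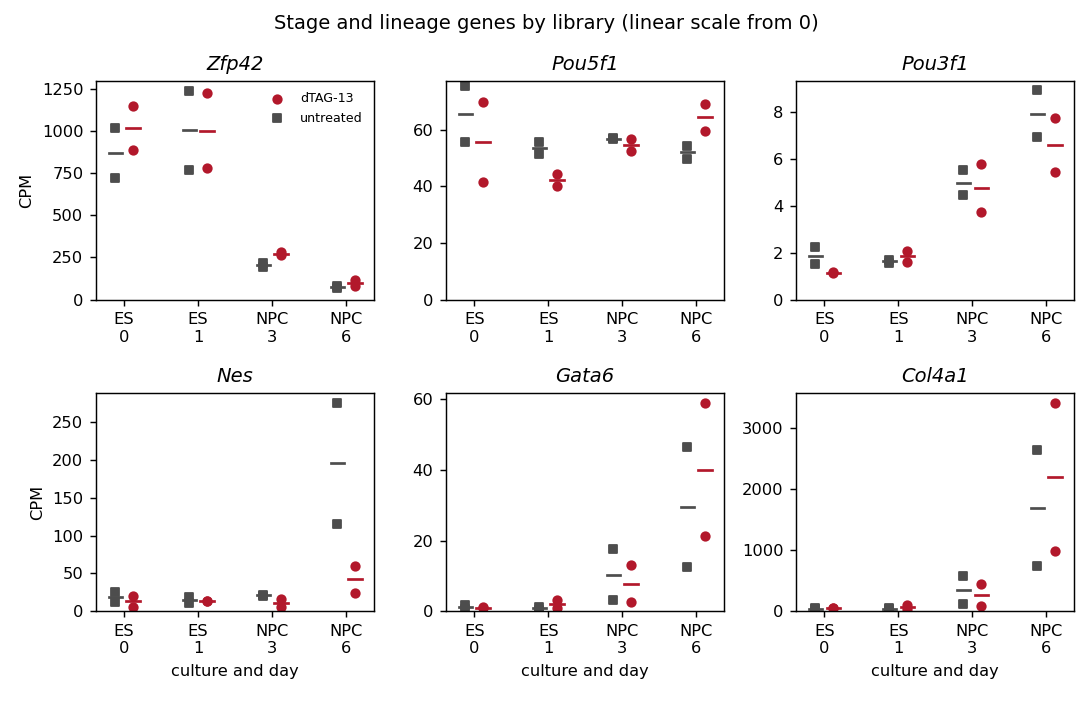
CPM of 6 stage and lineage genes by culture and day, 1 point per library with bars at the mean of 2, dTAG-13 in red and untreated in grey, on linear axes from 0. Zfp42 falls from 1146 and 885 CPM on ES day 0 to 119 and 80.7 on NPC day 6 with dTAG-13, while Nes reaches 60.1 and 24.2 against 276 and 115 untreated.

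Several genes that define neural precursors were near 0 on day 6, so the libraries are called NPC here by their label only. Of 41 neural progenitor genes, 23 were under 1 CPM in both NPC day 6 libraries, 5 had no fragment in any of the 4 libraries, and 22 could be tested, of which 4 rose and 2 fell, with 16 of the 22 changes positive (median log2 fold change 0.53). In untreated cells 9 rose and 3 fell (median 0.50). Without Ncam1, its largest member, the list summed to 401 and 394 CPM on day 0 and 602 and 573 on day 6. Pax6, which specifies the neuroectoderm, was at 1.91 and 1.17 CPM on day 0 and 0.832 and 0.804 on day 6 (-0.86, SE 0.63, adjusted p = 0.37). Fabp7 and Hes5 were at most 0.0757 and 0.241 CPM on day 6. On untreated day 6 Pax6 was at 0.378 and 1.42.

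Sox1 and Sox2 were counted at 0 in every library. Each lies inside a long non-coding gene on the same strand, so their reads could not be told apart from it in these counts. Nes, the intermediate filament nestin, was at 20 and 6.31 CPM on day 0 and 60.1 and 24.2 on day 6 without overlap, but did not pass the threshold (log2 fold change 1.72, SE 0.61, adjusted p = 0.065). The untreated libraries went from 25.4 and 12.8 to 276 and 115. The other intermediate filament gene, Vim, went from 18 and 16.8 to 49.6 and 26.5 (1.15, SE 0.37, adjusted p = 0.044).

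Sox4, Zic2 and Sox9 were called higher on low or modest counts, with Sox4 at 4.89 and 2.16 CPM on day 0 and 8.7 and 9.25 on day 6. Zic2, a neural plate factor, went from 15.6 and 9.41 to 22.5 and 27.3. Vim, Sox4 and Zic2 each lost the call without at least 1 library, and without NPC day 6 replicate 1 only 1 neural progenitor gene was called higher. Sox3, an early neural and primed-state factor on the X counted with the formative genes, rose from 0.169 and 0.045 to 0.984 and 1.45 (log2 fold change 3.52, SE 0.70).

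Of 15 neuronal genes tested 1 rose, the proneural factor Neurod1, and 1 fell, Elavl4 (median 0.30). Neurod1 went from 0.731 and 0.45 CPM to 2.72 and 2.33. Of the 39 Hox genes, which mark body-axis position, 22 had no fragment in the 4 libraries, all were under 1 CPM on day 6 and none of 3 tested changed.

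Endoderm genes were among those that rose most. In the mesoderm and endoderm list 5 of 11 tested rose and 0 fell, with a median log2 fold change of 1.28 (3.06 untreated), and without NPC day 6 replicate 2 or without ES day 0 replicate 1 the count was 2. Gata6, a primitive endoderm factor, went from 0.955 and 1.13 CPM to 21.3 and 58.9 (5.30, SE 1.11, adjusted p = 0.0064). Gata4 went from 2.42 and 4.59 to 33.5 and 108 (4.36, SE 0.92), a call lost without NPC day 6 replicate 2 (adjusted p = 0.053).

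Sox17, Foxa2 and Pdgfra, further endoderm genes, were the other 3 called. The type IV collagen pair, which basement membrane is built from and which primitive endoderm makes in bulk, stood among the 10 genes with the largest rise. Col4a1 went from 53.1 and 61.4 CPM to 987 and 3403 (log2 fold change 5.31, SE 1.06) and Col4a2 from 27.1 and 36.6 to 484 and 1635 (5.10, SE 1.03). Day 6 replicate 2 was the higher library for each of Gata4, Gata6, Pdgfra, Col4a1 and Col4a2.

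The same replicate was the higher in untreated cells, where Col4a1 was at 746 and 2638 CPM and Gata6 at 12.7 and 46.4. T (brachyury), the primitive streak factor, was at 4.55 and 2.61 on day 0 and 9.23 and 0.402 on day 6, against 41 and 9.36 on day 6 untreated. Trophoblast genes included 3 of 8 that rose (median 0.77), among them the epithelial keratins Krt8, from 7.87 and 3.56 to 30.3 and 23.4, and Krt18, from 5.79 and 3.15 to 21.6 and 14.1.

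Of the feeder fibroblast list 3 of 10 tested rose and 1 fell (median -0.02), against 6 and 1 in untreated cells (median 3.78). The 3 were Dcn, Acta2 and Tagln, of which smooth muscle actin Acta2 went from 0.169 and 0.045 CPM to 5.14 and 4.1 and Tagln, another contractile gene, from 1.07 and 0.45 to 11.4 and 7.8. The list without Fn1, its largest member, summed to 37.8 and 17.5 CPM on day 0 and 39.3 and 24.4 on day 6. Col1a1, the main fibroblast collagen, was at 6.46 and 0.946 on day 0 and 4.01 and 0.804 on day 6.

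The rest of the 10 largest rises were Xist, D130009I18Rik, Filip1l, St6galnac5, Glipr1, Fap and Enpp2. Enpp2 (autotaxin), which makes lysophosphatidic acid, went from 1.69 and 5.09 CPM to 70.1 and 122 (log2 fold change 4.83, SE 0.51, adjusted p = 0.00015). St6galnac5, a sialyltransferase gene, went from 0.674 and 0.721 to 12.9 and 45.9. Fap rested mainly on replicate 1, at 12 and 0.965 on day 6, and Filip1l on a signal that came and went across the whole series, with its call lost without any 1 of the 4 libraries.

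The largest falls were in genes that day 6 all but lacked. Tmem92 was at 5.23 and 6.85 CPM on day 0 (245 fragments) and had 0 fragments on day 6, at least 52.4-fold lower with a floor of 3 fragments over the group. Pramel6 and Pramel7, genes of the Prame-like family active in the early embryo, fell from 377 fragments to 2 (121-fold, counting interval 33.2 to 1002) and from 529 to 3 (113-fold, 38.5 to 550). Atp4b, a proton pump subunit gene, went from 7.87 and 19.3 CPM to 0.227 and 0.241. Gm12794, Gm5662, Gm2016, Gm15055, Sp110 and Gm5039 completed the 10. Several belong to families of near-identical copies, the Prame-like genes among them, whose counts are uncertain for that reason.

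Germline genes, whose promoters PRC1 with PCGF6 and DNA methylation are known to keep silent in somatic cells, were called lower or not at all. Of 19 tested, 9 fell, 0 rose and 10 did not pass, with a median log2 fold change of -0.80, against 11 lower and a median of -1.41 in untreated cells. Without NPC day 6 replicate 1 or without replicate 2 the count was 4. Smc1b, a meiotic cohesin subunit, was at 122 and 146 CPM on ES day 0, 123 and 149 on NPC day 3 and 60.1 and 48.7 on NPC day 6 (-1.27, SE 0.15, adjusted p = 0.0003). In untreated cells it went from 117 and 134 to 19 and 13.9 (-2.87), below both dTAG-13 libraries.

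Dazl, an RNA-binding protein of germ cells, went from 31.5 and 26.7 CPM to 10.3 and 7.8 (log2 fold change -1.65, SE 0.20), and untreated from 35.5 and 36.9 to 3.53 and 2.83. Hormad1, a meiotic chromosome axis protein gene, went from 28.1 and 36.4 to 18.2 and 21.9 (-0.66, SE 0.17), and untreated from 30.2 and 32.9 to 7.44 and 6.97. Stk31, a testis kinase gene, went from 47.1 and 53.3 to 29.9 and 23.4 (-0.89, SE 0.18), and untreated from 49 and 40.9 to 13.4 and 11.4. On day 6 both dTAG-13 libraries were above both untreated libraries for each of these genes. They were also called in the blocked fit (below), so the separation is not independent support. The share of all genes that separated so is not given here.

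Sycp1, of the synaptonemal complex, went from 49.4 and 68.6 CPM to 20.8 and 20.7 (log2 fold change -1.48, SE 0.24), with 7.06 and 9.36 on untreated day 6. Mael, a piRNA pathway gene, was at 5.56 and 9.82 on day 0 and 3.18 and 3.3 on day 6 without passing the threshold (-1.22, SE 0.42, adjusted p = 0.061), with 1.32 and 1.31 on untreated day 6. Stag3, Rpl10l, Tex11 and Taf7l were the other genes called lower. Of these, Tex11 and Taf7l are X-linked, and the part of X silencing in their falls was not tested. Over the list 17 of 19 genes had a less negative change with dTAG-13 than without (median difference 0.64, beside -0.01 over all genes).

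**Figure D5:**
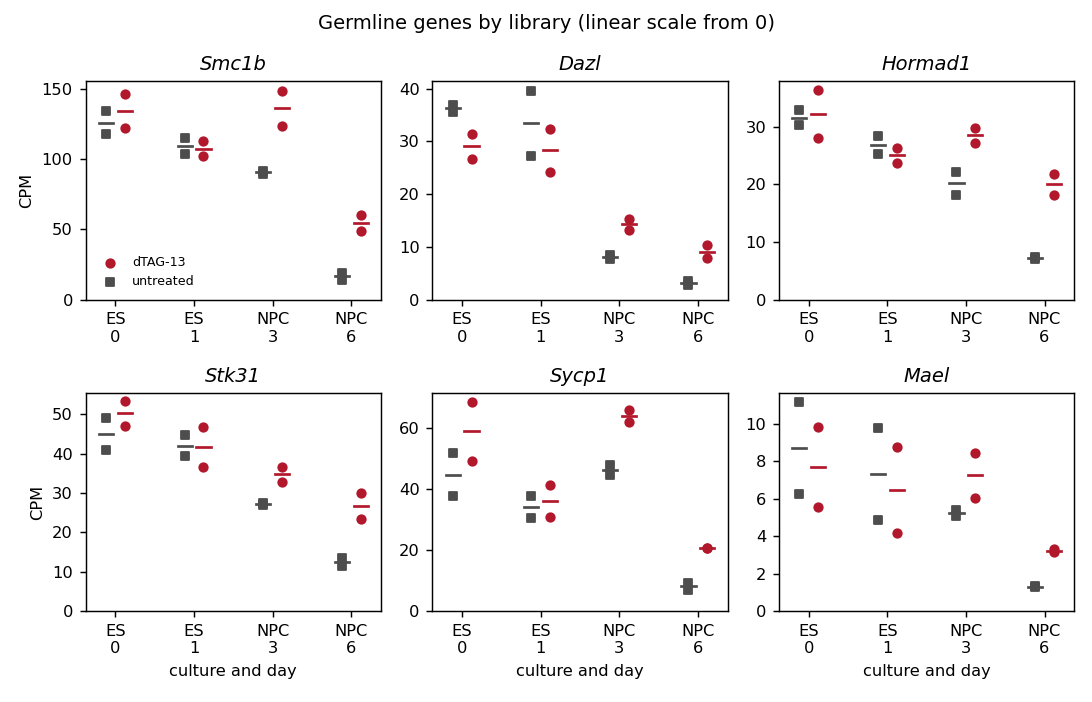
CPM of 6 germline genes by culture and day, 1 point per library with bars at the mean of 2, dTAG-13 in red and untreated in grey, on linear axes from 0. On NPC day 6 both dTAG-13 libraries lie above both untreated libraries in every panel, as for Smc1b at 60.1 and 48.7 against 19 and 13.9 CPM. All but Sycp1 were called as different between treatments in the blocked fit, so the separation is not independent support.

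The 250 bases before the start of the 5 germline genes called as different between treatments in the blocked fit (below) are shown. Germline promoters are a known site of PRC1 with PCGF6, a subunit that did not carry the degron. That complex acts through MGA with MAX, which binds the E-box CACGTG, and E2F6, which binds TCCCGC or its reverse complement GCGGGA. Sequences are from RefSeq on GRCm38.p6, read 5′ to 3′ on the gene's strand, with any of these 3 motifs in capitals.
Smc1b (chr15:85131958-85132207, minus strand): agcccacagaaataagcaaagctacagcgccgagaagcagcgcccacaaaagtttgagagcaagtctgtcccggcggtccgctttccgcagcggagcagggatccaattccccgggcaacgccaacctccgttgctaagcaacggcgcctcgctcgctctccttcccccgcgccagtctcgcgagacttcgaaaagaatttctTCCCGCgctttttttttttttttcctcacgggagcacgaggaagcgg
Dazl (chr17:50293621-50293870, minus strand): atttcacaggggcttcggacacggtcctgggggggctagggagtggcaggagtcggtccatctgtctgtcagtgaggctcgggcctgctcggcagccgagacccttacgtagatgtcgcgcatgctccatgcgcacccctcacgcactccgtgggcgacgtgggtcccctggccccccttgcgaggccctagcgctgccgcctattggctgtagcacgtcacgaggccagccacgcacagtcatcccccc
Hormad1 (chr3:95559427-95559676, plus strand): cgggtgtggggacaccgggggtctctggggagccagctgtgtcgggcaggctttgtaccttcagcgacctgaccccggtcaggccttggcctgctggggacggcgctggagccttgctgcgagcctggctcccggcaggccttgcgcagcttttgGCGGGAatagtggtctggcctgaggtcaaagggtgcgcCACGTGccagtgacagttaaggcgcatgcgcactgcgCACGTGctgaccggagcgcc
Stk31 (chr6:49395354-49395603, plus strand): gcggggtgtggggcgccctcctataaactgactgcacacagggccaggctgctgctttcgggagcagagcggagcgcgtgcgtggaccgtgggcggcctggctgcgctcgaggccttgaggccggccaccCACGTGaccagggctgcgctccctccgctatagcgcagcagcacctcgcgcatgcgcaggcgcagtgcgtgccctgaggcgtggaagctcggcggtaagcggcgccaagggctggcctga
Mael (chr1:166238745-166238994, minus strand): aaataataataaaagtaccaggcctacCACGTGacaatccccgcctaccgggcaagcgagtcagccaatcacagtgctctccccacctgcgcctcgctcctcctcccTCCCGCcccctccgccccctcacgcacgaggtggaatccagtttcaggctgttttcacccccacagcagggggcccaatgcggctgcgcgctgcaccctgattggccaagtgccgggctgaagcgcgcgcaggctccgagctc

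Hormad1, Stk31 and Mael held an E-box, and Smc1b, Hormad1 and Mael an E2F-type motif, while Dazl held neither in this window. Promoters matched 19 of the 20 list members, all but Tex11 and with the untested Tex101 included. Of these 19, 12 held an E-box, 6 an E2F-type motif and 4 both. Over the promoters of 11631 tested genes the shares were 8.27%, 29.5% and 2.69%, counted on both strands. The E-box was thus more frequent in the list, while the E2F-type count was near the share of all tested genes. Of the 8 matched genes that fell with dTAG-13, 5 held an E-box, about the share of the whole list. A match is a run of letters, not a bound site, and the motifs were searched because of that background, not found in these data.

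In a test of whether the ES to NPC change itself differed with dTAG-13, no gene passed when libraries were compared by group (0% higher and 0% lower, edgeR's quasi-likelihood test), with 1203 genes at an unadjusted p under 0.05 and a smallest adjusted p of 0.0976. DESeq2 called 64, and leaving out dTAG-13 ES day 0 replicate 1 gave 60. Treated and untreated cultures of a day were grown in parallel and their replicates deviated together. With that pairing as a block 177 genes were higher (1.13%) and 210 lower (1.34%), where higher means less of a fall or more of a rise with dTAG-13.

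The blocked total of 387 was unstable. It was 25 without dTAG-13 NPC day 6 replicate 1, 74 without its replicate 2, 2838 without dTAG-13 ES day 0 replicate 1 and 377 without replicate 2. Leaving out the untreated partners gave 24, 69, 2844 and 370. Of the genes named here Smc1b and Col1a1 passed in all 8 of those fits. The difference in the blocked fit was 1.61 in log2 for Smc1b.

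Other blocked calls that were higher with dTAG-13 included Dazl (1.81), Mael (1.43), Hormad1 (1.40) and Stk31 (0.91) of the germline list. They also included Tfcp2l1, Dppa5a, Tcl1, Fgf4 and Nr0b1 of the naive list. Also higher were 2 of 11 general pluripotency, 1 of 11 PRC2 and 1 of 11 Hedgehog genes, not named here, and 2 p53 targets given below. Lower were the neural progenitor genes Nes (-1.60), Gli3 (-0.98), Dach1 (-1.21) and Ptn (-1.76), and the fibroblast collagens Col1a1 (-4.50), Col1a2 (-3.43) and Col3a1 (-6.64). The ES day 0 levels of Col1a1 and Col3a1 differed between treated replicates as given above. In untreated cells 6 of the 10 fibroblast genes were called higher on day 6 (median log2 fold change 3.78). None of the 10 had a positive difference, where 7772 of 15654 genes tested had one in the blocked fit. T (-2.80), Cdh2 (-1.45), Krt8 (-1.21), Maml2 (-2.33) and Spred3 (-1.24) were also lower. On the X, 46 of 593 tested genes were called (7.76%), 39 of them higher.

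For Xist the difference was -1.31 in log2 (unadjusted p = 0.00574 in edgeR's quasi-likelihood test, not past the threshold once adjusted) and -1.36 in the blocked fit (adjusted p = 0.00906). The day 0 Xist level was the higher in both dTAG-13 libraries, and on day 6 the ranges overlapped.

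The counts of Polycomb and Xist pathway genes stand beside 9.45% higher and 9.95% lower over all genes tested. Of 26 PRC1 genes tested 1 rose, Bcor from 52.5 and 48 CPM to 91.5 and 98.5, and 1 fell, Bcorl1 from 22.8 and 30.2 to 8.1 and 8.6 (median log2 fold change 0.02). Both encode PRC1.1 corepressors and both are X-linked, and the Dom ratio fell for each, from 0.534 and 0.487 to 0.301 and 0.343 for Bcor and from 0.675 and 0.7 to 0.317 and 0.41 for Bcorl1. Of 11 PRC2 genes the histone-binding Rbbp4 rose (0.56), while Rbbp7, also X-linked, and Mtf2, which recruits PRC2 to CpG islands, fell (-0.95 and -0.72). The catalytic subunit gene Ezh2 was at 184 and 243 on day 0 and 239 and 240.3 on day 6, with overlapping groups.

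In the Xist pathway list 4 of 18 rose and 2 fell (median 0.12). Besides Xist the risers included Smchd1 (339 and 335 to 454 and 418), which compacts the inactive X, and Ciz1. Tsix and Rlim, the Xist activator gene on the X, fell. Spen, whose protein binds Xist to silence genes, was at 119 and 96.5 on day 0 and 169 and 156 on day 6 without passing the threshold (log2 fold change 0.63, SE 0.36, adjusted p = 0.25).

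The counts of signalling genes stand beside 9.45% higher and 9.95% lower over all genes. In the Notch list 5 of 19 rose and 2 fell (median 0.32), led by the coactivator Maml3, from 12.3 and 32.1 CPM to 176 and 281 (log2 fold change 3.39, SE 0.47, adjusted p = 0.00063), with the receptor Notch3 from 21.9 and 31 to 69.1 and 72.3 and the ligand Jag1 falling from 44.1 and 32.6 to 21 and 19.5. Untreated Maml3 reached 457 and 458. Of 14 WNT genes 3 rose and 0 fell (median 0.71), Nkd1, Sfrp1 and Tcf7l2, but 0 without NPC day 6 replicate 2. Of 18 ERK output genes 3 rose and 2 fell (median 0.32), with the inhibitor Spry4 going from 43.4 and 53.7 to 19.3 and 17.7. None of 11 Hedgehog genes was called (median 0.26).

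Of the sterol synthesis genes 10 of 24 rose and 1 fell (median log2 fold change 0.48), against 16 and 3 in untreated cells. Without NPC day 6 replicate 2 the count was 2 and without ES day 0 replicate 2 it was 3. Hmgcs1, an early enzyme of the mevalonate pathway, went from 86.5 and 76.1 CPM to 170.3 and 152 (1.02, SE 0.15). The 1 that fell, the X-linked isomerase gene Ebp, went from 17.2 and 15.9 to 9.68 and 7.8.

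Few stress genes passed the test. Of 15 ATF4 targets 1 rose, Sesn2 (median 0.11), and of 13 p53 targets 1 rose, the proapoptotic Bbc3 (Puma), from 2.42 and 1.13 CPM to 4.09 and 4.83 (median 0.26). All 13 p53 targets had a higher fitted change with dTAG-13 than without, by a median of 0.43, where 7713 of 15654 genes tested were higher. In the fit by group 1 of the 13 had an unadjusted p under 0.05 (edgeR's quasi-likelihood test). Trp53inp1 and the X-linked Eda2r passed in the blocked fit. Eda2r was at 0.299 in both dTAG-13 day 6 libraries by allelic ratio, from 0.468 and 0.498, and at 0.0948 and 0.117 on untreated day 6. Of the 8 list genes with a deposited ratio, 7 lost Dom share and Ebp did not pass.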

How the data were processed

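As their methods and the labels state, the authors discarded ribosomal pairs with Bowtie2, aligned pairs to N-masked mm10 with STAR, split them by allele with SNPsplit and counted whole transcript spans, introns included, by strand with featureCounts. The deposited count tables hold raw counts per gene (total, Cast and Dom). The deposited ratio table, a fraction from 0 to 1, was filtered by the authors before deposit, and recomputing it from the counts gave a largest difference of 5.6e-16. The 4 libraries held 12.4 M to 22.2 M fragments and were compared as described in the report.

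Counts were tested with edgeR 4.0.16 (quasi-likelihood, TMM, filterByExpr, Benjamini-Hochberg at 0.05, 1 mean per group over the 16 libraries of the line) and allele counts with a library term in the same test, all checked on simulated data. Values in CPM use total library size, with no pseudocount. DESeq2 1.42.0 and other scalings, filters, library sets and replicate blocks were alternatives.

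Genes named were members of 22 lists, Xist, Tsix, Pcgf3, Pcgf5 and Spen, the 10 largest called changes per direction (no overlap, at least 5 CPM), the X-linked genes with the 6 lowest, highest, most and least changed ratios (at least 100 allelic fragments), and the 6 largest called differences from untreated cells per direction. Some genes that met these rules are not reported here. The part, members and lists were chosen with earlier results of these data known. Same-numbered treated and untreated libraries of a day, grown in parallel per the methods, deviated together (correlations of 0.478 on ES day 0 and 0.444 on NPC day 6), whereas same-numbered ES day 0 and NPC day 6 libraries did not (0.003). Replicates differed by more than counting noise, so none was counted as a repeat.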

Additional observations from a re-analysis of the deposited data

Results flagged for a closer look

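The ES to NPC change in Dom share differed between dTAG-13 and untreated cells by a test of the difference itself for 110 of the 246 X-linked genes, each with a smaller loss with dTAG-13. Among the largest differences, in log2 odds, were 4.49 for F8, 4.09 for Pcyt1b, 3.78 for Zfp280c and 3.27 for Prkx. These are among the largest of those with at least 100 allelic fragments in each of the 4 groups. Groups of 2 libraries were too small to look for a single library far from its group.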

How the results depend on the processing

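From ES day 0 to NPC day 6 with dTAG-13, the 3037 expression calls were 1850 with all 58 libraries in the fit (1692 of them shared), 1314 with the 4 libraries alone, 6179 with the replicate block within the day and 1998 with the replicate block in the 4 libraries alone. Leaving out single libraries gave 1220 to 3102, with 1 gene of opposite sign. ES day 0 and NPC day 6 libraries share only a number, so those blocked counts pair nothing known. The difference from untreated cells went from 0 calls to 1 without a filter, 64 with DESeq2, 387 with the replicate block, 37 with the replicate block in the libraries of the comparison alone and 0 to 60 without single libraries. The block combined with leaving out 1 library, chosen after seeing the data, gave 25, 74, 2838 and 377 without dTAG-13 NPC day 6 replicates 1 and 2 and ES day 0 replicates 1 and 2, and 24, 69, 2844 and 370 without their untreated partners. The cause of these moves was not tested, beyond the fewer samples of the smaller fits. The allelic difference of 110 genes ranged from 63 to 114 without single libraries. The change in the median ratio, -0.285, was -0.275 as a mean over genes, -0.266 for summed fragments and -0.270 for genes with at least 100 fragments, and -0.286 and -0.283 within replicates 1 and 2 (replicate block). Among 240 results for single genes, 3031 of 3518 values under an alternative kept direction and call, 324 lost the call, 163 gained it and 0 reversed.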

Other observations

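Filip1l (chr16:57353276-57572804) and D130009I18Rik (chr14:104639146-104966783, both mm10), which head the genes that rose, varied across the whole series. They were high in libraries of both stages, more often in NPC. Filip1l ran from 3.56 to 46898 CPM over the 58 libraries and was over 100 CPM in 36 of them, 13 of 26 ES and 23 of 32 NPC libraries. D130009I18Rik was at or below 15.5 CPM in the other libraries and above that in those 36. At least 95.8% of the allelic Filip1l fragments of each of the 36 were from Cast. With dTAG-13, Filip1l was at 7.14 and 3.56 CPM on ES day 0, 15 and 4368 on ES day 1, 1219 and 2947 on NPC day 3 and 2422 and 4093 on NPC day 6. In untreated ES day 0 replicate 2 it was already at 646 CPM.

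On the X beyond Xist, 135 genes with enough allelic fragments had a Dom share between 0.731% and 1.07% in all 4 libraries, before as well as after induction, so silencing there could not be read by allele.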
